A study of Mus musculus with 4 samples.

Results

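Transcripts of 10 genes of endothelial BMP signalling were followed in 4 single-cell RNA libraries of vessel progenitor cells sorted from C57BL/6 mice. The genes were taken as a list by their roles: the receptors Eng, Acvrl1 and Bmpr2, the inhibitory SMADs Smad6 and Smad7, the target genes Id1, Id3 and Tmem100, the extracellular modulator Bmper and the ligand Bmp4. They are 10 of 31017 gene symbols measured, and all 10 were detected in every library. Each library was 1 sample of 1 group, so no test was possible and every difference describes these libraries alone. The groups were P1 of lung, P2 of lung, P1 of fat and P2 of fat. P1 had been gated as positive for Tie2 and CD31, negative for PDGFRa, high for CD105 and low for Sca1. P2 had been gated as positive for Tie2 and PDGFRa, negative for CD31, low for CD105 and high for Sca1, and both gates left out CD45 and Ter119 positive cells. CD105 is endoglin, the product of Eng, so the sort itself set apart P1 and P2 by that protein and the Eng values between populations are given as a description. Age, sex and the number of animals behind a library are not given in the sources used here.

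BMP9 and BMP10 circulate in blood and bind a receptor complex on endothelial cells, made of the type I receptor ALK1 (Acvrl1), the type II receptor BMPR2 and the co-receptor endoglin. The complex phosphorylates SMAD1 and SMAD5, which enter the nucleus with SMAD4 and raise genes such as Id1 and Id3, which encode inhibitors of DNA binding, and the inhibitory SMADs 6 and 7, which feed back on the receptors. Tmem100 encodes a membrane protein that lies downstream of ALK1 in developing mouse vessels. Bmper encodes a secreted protein that binds BMPs and modulates their activity, and Bmp4 encodes a BMP ligand. Loss of function of ENG, ACVRL1 or BMPR2 underlies human vascular disease, namely hereditary haemorrhagic telangiectasia and pulmonary arterial hypertension.

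Promoter windows were available from RefSeq (build GRCm38.p6) for 6 of the 10 genes. Of these, 3 are shown, from 250 bases before the annotated start to the first 10 bases of the transcript: a receptor gene (Eng, chr2:32646345-32646604, plus strand), an inhibitory SMAD (Smad6, chr9:64022050-64022309, minus strand) and the modulator (Bmper, chr9:23222826-23223085, plus strand). In the values given further on, Eng was high in both P1 libraries, Smad6 in labelled fat P1 alone, and Bmper was higher in P2 than in P1 in both tissues. Capitals mark matches on either strand to the SMAD-binding palindrome GTCTAGAC or to the SMAD box CAGAC.
Eng: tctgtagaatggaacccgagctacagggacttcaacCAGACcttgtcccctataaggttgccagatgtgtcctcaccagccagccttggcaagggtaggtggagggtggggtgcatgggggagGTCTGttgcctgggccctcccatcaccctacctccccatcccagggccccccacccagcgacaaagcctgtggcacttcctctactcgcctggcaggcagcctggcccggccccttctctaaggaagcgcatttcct
Smad6: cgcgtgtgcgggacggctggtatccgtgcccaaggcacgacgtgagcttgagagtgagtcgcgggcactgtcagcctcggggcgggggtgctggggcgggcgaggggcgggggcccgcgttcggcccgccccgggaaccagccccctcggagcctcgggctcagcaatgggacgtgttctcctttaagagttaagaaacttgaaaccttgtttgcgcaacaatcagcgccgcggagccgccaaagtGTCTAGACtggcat
Bmper: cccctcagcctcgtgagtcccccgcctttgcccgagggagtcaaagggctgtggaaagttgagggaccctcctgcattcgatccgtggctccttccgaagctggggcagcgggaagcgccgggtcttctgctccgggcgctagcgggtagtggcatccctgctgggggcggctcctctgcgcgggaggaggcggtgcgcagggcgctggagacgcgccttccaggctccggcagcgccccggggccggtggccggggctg
The Smad6 window held GTCTAGAC across its start, from base -4 to base 4, and 0.177% of all 32851 promoter windows of this length held it. The Eng window held CAGAC at bases -214 to -210 and its reverse complement GTCTG at bases -127 to -123, and 44.0% of all windows held either. The Id3 window (not shown) also held 2 such matches. Bmper and Bmp4 held none of GTCTAGAC, CAGAC or GGCGCC, a GC-rich motif bound by BMP-activated SMADs that 9.96% of windows held and that was found in the Bmpr2 window. No 2 matches overlapped. A match describes these letters and is no evidence of binding.

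After cells were kept at 1000 or more UMIs (unique molecular identifiers, counted molecules), 500 or more genes and at most 10% mitochondrial UMIs, the libraries held between 652 and 7898 cells and between 1118642 and 43599072 UMIs, with labelled lung P1 the smallest and fat P2 the largest. No pair of libraries shared more than 1 cell barcode. A list of 12 endothelial markers summed to 11318 CPM (counts per 1e+06 UMIs of a library) in labelled lung P1, 722 in lung P2, 17404 in labelled fat P1 and 72.2 in fat P2. The 12 fibroblast markers summed to 1705, 31504, 199 and 67340 CPM in the same order, so endothelial RNA marked both P1 libraries and fibroblast RNA both P2 libraries. Tissue genes went against the tissue labels of both P1 libraries. Fabp4, which adipose vessels express, stood at 12379 CPM in labelled lung P1 and 94.2 CPM in labelled fat P1, while the lung transcription factor gene Foxf1 stood at 3.58 CPM in labelled lung P1 and 716 CPM in labelled fat P1. All 5 adipocyte markers were at 0 in labelled fat P1. They summed to only 1.35 CPM in fat P2, so their absence does not tell the tissues apart. Because of the tissue genes, the P1 libraries are called labelled lung P1 and labelled fat P1. The comparisons of P1 with P2 are also given with the P1 libraries exchanged. Labelled lung P1 stood apart in a further way: at 1000 UMIs per cell, 53.2% of its barcodes held at least 2 UMIs of endothelial and 2 of fibroblast markers, against 0.308% to 0.627% in the other libraries. Its barcodes varied in endothelial marker UMIs by 1.05 times the binomial variance, against 2.07 to 18.3 times elsewhere, so its values describe the library as a whole rather than separate cells.

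The 3 receptor genes were highest in labelled fat P1, and of the receptors it was Eng that was also high in labelled lung P1. Eng (ENSMUSG00000026814, mm10 chr2:32646595-32682669), the co-receptor, stood at 976 CPM in labelled lung P1 (95% counting interval 919 to 1036) and 99.2 in lung P2 (89.6 to 109.7), and at 1294 in labelled fat P1 (1267 to 1322) and 46.6 in fat P2 (44.6 to 48.65). Acvrl1 (ENSMUSG00000000530, chr15:101128522-101145336), the type I receptor ALK1, stood at 291 CPM in labelled lung P1 (261 to 325) and 165 in lung P2 (152 to 178), and at 1683 in labelled fat P1 (1651 to 1715) and 60.35 in fat P2 (58.1 to 62.7). Both genes were higher in P1 under either label, but for Acvrl1 the distance between the labelled lung libraries was small. Bmpr2 (ENSMUSG00000067336, chr1:59763400-59879014), the type II receptor, was lower in labelled lung P1, at 122.5 CPM (103 to 145), than in lung P2, at 310.3 (293 to 328). In the libraries labelled fat it stood at 1981 CPM in P1 (1947 to 2016) and 118 in fat P2 (114 to 121). Intervals cover counting error only.

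Counted by cells, the receptors gave the same order. With every cell thinned to 1000 UMIs, Eng was seen in 63.65% of barcodes of labelled lung P1, 5.71% of lung P2, 71.05% of labelled fat P1 and 4.33% of fat P2. Acvrl1 was seen in 27.0%, 11.4%, 79.2% and 5.89% of cells in the same order of libraries, and Bmpr2 in 11.0%, 21.0%, 82.0% and 10.9%. Without thinning the shares of fat P2, the deepest library, were 18.8% (Eng), 26.5% (Acvrl1) and 43.3% (Bmpr2). As a measure of free RNA, Eng was seen in 7.89% (1.66 to 21.4) of the 38 epithelial-like cells of labelled fat P1 at a median depth of 5099 UMIs, against 71.8% of its 1183 endothelial-like cells at 3443 UMIs. In fat P2 it was seen in 0 of 50 cells of a cluster led by immune genes (upper limit 7.11%, median 2727 UMIs), and that limit does not set the 4.33% of the library apart. By summed UMIs the same cluster held Eng at 13.8 CPM (3 UMIs, 2.85 to 40.4), an interval below that of the whole library.

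**Figure D1:**
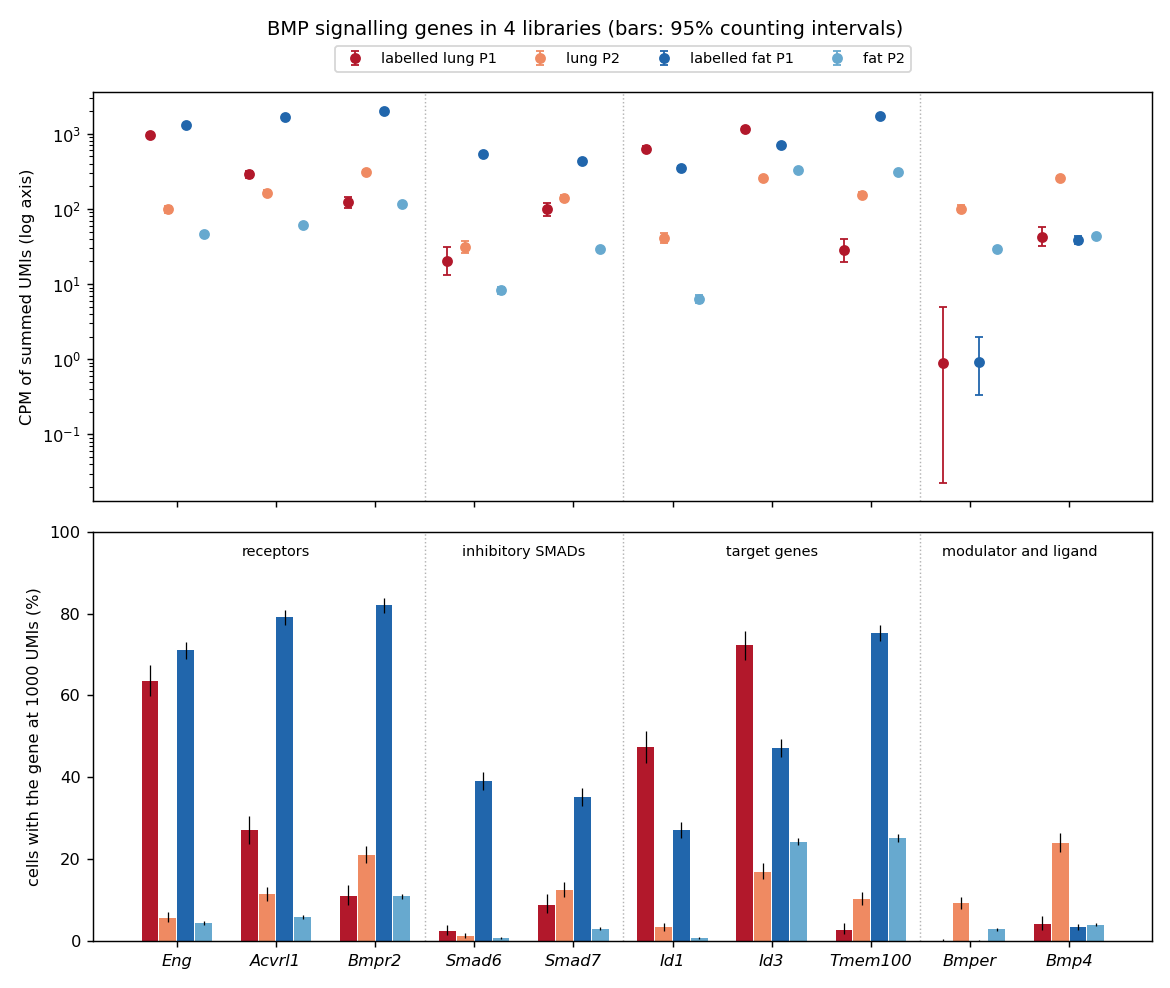
Upper panel, CPM of summed UMIs of the 10 genes in each library on a log axis. Lower panel, the percentage of cells with at least 1 UMI of the gene after thinning to 1000 UMIs. Genes are ordered by role, colours stand for the 4 libraries, and error bars are exact 95% counting intervals. Labelled fat P1 lies highest for the 3 receptors, both inhibitory SMADs and Tmem100, labelled lung P1 for Id1 and Id3, and lung P2 for Bmper and Bmp4.

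Of the 4 libraries, labelled fat P1 had by far the most RNA of the inhibitory SMADs. Smad6 (ENSMUSG00000036867, chr9:63953076-64022059), an inhibitor specific to BMP signals, stood at 20.6 CPM in labelled lung P1 (13.03 to 30.85), 31.4 in lung P2 (26.1 to 37.5), 536 in labelled fat P1 (518 to 554) and 8.26 in fat P2 (7.43 to 9.16). Its intervals in the libraries labelled lung overlapped. Smad7 (ENSMUSG00000025880, chr18:75367529-75395935), which inhibits both BMP and TGF-beta signals, stood at 98.3 CPM (80.8 to 118.5) and 139 CPM (128 to 151) in the libraries labelled lung P1 and lung P2, and at 437 CPM (421 to 454) and 28.9 CPM (27.3 to 30.5) in the libraries labelled fat P1 and fat P2. At 1000 UMIs, 39.2% of cells labelled fat P1 held Smad6 and 35.2% held Smad7. Within labelled fat P1, Smad6 was seen in 10.5% (2.94 to 24.8) of the epithelial-like cells. In the other libraries it was seen in 0.658% to 2.45% of cells. In lung P2 the share was 23.5% (10.7 to 41.2) of 34 endothelial-like cells and 0.628% (0.204 to 1.46) of 796 fibroblast-like cells, at median depths of 4435.5 and 2176 UMIs.

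The target genes fell into separate patterns. Id1 (ENSMUSG00000042745, chr2:152736251-152737410) stood at 637 CPM in labelled lung P1 (591 to 686) and 41.2 in lung P2 (35.1 to 48.1), and at 354 in labelled fat P1 (339 to 368.5) and 6.35 in fat P2 (5.63 to 7.15). Id3 (ENSMUSG00000007872, chr4:136143497-136145755) stood at 1170 CPM in labelled lung P1 (1108 to 1235) and 257.5 in lung P2 (242 to 274), and at 707 in labelled fat P1 (687 to 728) and 334 in fat P2 (329 to 339.5). Both Id genes were thus highest in labelled lung P1, in which Bmpr2 and the inhibitory SMADs were low, but the P2 libraries kept much more Id3 than Id1 relative to P1. Id1 or Id3 was seen in 85.1% of barcodes labelled lung P1, 19.2% of lung P2, 60.3% of cells labelled fat P1 and 24.7% of fat P2 at 1000 UMIs.

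Tmem100 (ENSMUSG00000069763, chr11:90030348-90036508) followed neither the populations nor the Id genes. It stood at 28.6 CPM in labelled lung P1 (19.6 to 40.4) and 155 in lung P2 (143 to 168), and at 1751 in labelled fat P1 (1719 to 1783) and 306 in fat P2 (301 to 311). It was seen in 2.76% of barcodes labelled lung P1, 10.3% of lung P2, 75.3% of cells labelled fat P1 and 25.1% of fat P2. The immune-gene cluster of fat P2 held it in 6.00% of 50 cells (1.25 to 16.5) and at 203 CPM (147 to 272), and all 12 fibroblast markers stood at 100 CPM or more in it as well.

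The modulator and the ligand were highest in lung P2. Bmper (ENSMUSG00000031963, chr9:23223076-23485200) had 1 UMI in labelled lung P1 (0.894 CPM, 0.0226 to 4.98) against 392 UMIs in lung P2 (101 CPM, 91.3 to 111.5). It had 6 UMIs in labelled fat P1 (0.922 CPM, 0.338 to 2.01) against 1284 in fat P2 (29.45 CPM, 27.9 to 31.1). All 6 lay in the epithelial-like cluster, and none of the 1183 endothelial-like cells held 1, which allows a share of up to 0.311% of cells with a UMI. Bmp4 (ENSMUSG00000021835, chr14:46383520-46390669) stood at 42.9 CPM in labelled lung P1 (31.6 to 56.9), 261 in lung P2 (245 to 277), 38.9 in labelled fat P1 (34.2 to 44.0) and 43.3 in fat P2 (41.3 to 45.3). The intervals of the other 3 libraries overlapped and lay below that of lung P2. At 1000 UMIs, Bmp4 was seen in 24.0% of lung P2 cells and in 3.34% to 4.14% of cells of the other libraries. Bmper was seen in 9.19% of lung P2 cells and in 0 of its 34 endothelial-like cells (upper limit 10.3%, median 4435.5 UMIs, beside 2150 in the library).

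The first comparison asked how the genes differ between the CD31 positive P1 and the PDGFRa positive P2 population of a tissue. In the libraries labelled fat, 7 of the 8 genes with 50 CPM or more in 1 of the 2 libraries were 4-fold or more higher in P1 and none was lower, on the log2 ratio after adding 10 CPM. Over all 4727 genes tested there, 12.4% were higher in P1 by this measure and 10.1% lower. The log2 ratios were 4.90 for Smad6, 4.59 for Acvrl1, 4.53 for Eng, 4.48 for Id1, 3.96 for Bmpr2, 3.52 for Smad7, 2.48 for Tmem100 and 1.06 for Id3. Bmper and Bmp4 were under 50 CPM in both libraries, at -1.85 and -0.12. The median over the 8 genes was 4.22, beside 0.38 over all genes tested. Eng is counted among the 7 genes and in this median, though the sort had set P1 and P2 apart by its protein.

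In the libraries labelled lung the genes split. Of 9 genes with enough RNA, Id1 (log2 ratio 3.66), Eng (3.17) and Id3 (2.14) passed 4-fold upwards in P1, and Bmper (-3.35), Bmp4 (-2.35) and Tmem100 (-2.10) were at least 4-fold lower. Over all 4791 genes tested, 8.45% were at least 4-fold higher and 11.8% lower, 20.2% in all. Acvrl1 (0.79), Smad7 (-0.46) and Bmpr2 (-1.27) lay within 4-fold, and Smad6 was under 50 CPM in both libraries (-0.44). The median over the 9 genes was -0.46, beside -0.12 over all genes. This median and the genes higher in P1 include Eng, whose protein was gated in the sort. Id3 was under 4-fold among cells with 2000 or more UMIs, and Tmem100 was under 4-fold with DESeq2 size factors or when only endothelial-like P1 and fibroblast-like P2 cells were compared, where it stood at -1.76. The signs of Smad6 and Smad7 were not settled, since Smad6 stood at 0.44 in that last comparison and Smad7 at 0.05 with at most 5% mitochondrial UMIs.

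Exchanging the P1 libraries gave another picture in both tissues. Labelled fat P1 set against lung P2 gave 6 genes at least 4-fold higher in P1, beside 8.90% of all 4853 genes tested: Smad6 (3.72), Eng (3.58), Tmem100 (3.41), Acvrl1 (3.28), Id1 (2.83) and Bmpr2 (2.64). Bmper (-3.35) and Bmp4 (-2.47) were at least 4-fold lower in P1, beside 10.3% of all genes. Labelled lung P1 set against fat P2 gave Id1 (5.31), Eng (4.12) and Acvrl1 (2.10) at least 4-fold higher in P1 and Tmem100 (-3.03) lower, beside 9.97% and 9.46% of all 4282 genes. Eng and Id1 were at least 4-fold higher in P1 under both pairings and both tissues, whereas Tmem100 changed sign in both tissues with the exchange. Eng is counted among the genes higher in P1 in each pairing, though the sort had set P1 and P2 apart by its protein. Bmpr2, Smad6 and Smad7 (1.58) changed sign in lung.

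Endothelial-like cells that remained in the P2 libraries gave values that do not rest on the P1 labels. Lung P2 held 34 such cells with 262218 UMIs, 2.37% of its cells. Set against the 796 fibroblast-like cells of that library, 6 genes were at least 4-fold higher in them, where 9.50% of all genes tested were: Eng stood at 797 against 30.05 CPM, Acvrl1 at 889 against 113.5, Bmpr2 at 1476 against 227, Smad6 at 290 against 13.8, Id1 at 191 against 31.5 and Tmem100 at 828 against 122 CPM. Each of these 6 was also at least 4-fold higher in labelled fat P1 than in lung P2. Bmper was lower, at 7.63 CPM (2 UMIs, 0.924 to 27.55) against 116, where 7.91% of all genes were. In fat P2, 13 endothelial-like cells with 90581 UMIs gave Id1 at 243 against 4.87 CPM and Eng at 530 against 46.7 CPM as at least 4-fold higher than in 6946 fibroblast-like cells, beside 6.84% of all genes. No gene of the 10 was at least 4-fold lower there, beside 1.16% of all genes. Tmem100 stood at 177 CPM (101 to 287) against 323 and Smad6 at 22.1 CPM from 2 UMIs (2.67 to 79.8) against 8.07. This class of fat P2 depends on the clustering. At a coarser clustering no cluster of fat P2 was endothelial-like, and Fabp4, Aqp1 and Ptprb led an unnamed cluster of 112 cells. The comparison within libraries was added after the data had been seen. Beside all of these values, dissociation-response genes summed to 23500 CPM in labelled lung P1 and 6213 in lung P2, and in the libraries labelled fat to 3087 (P1) and 24837 (P2). Their part was not tested.

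**Figure D2:**
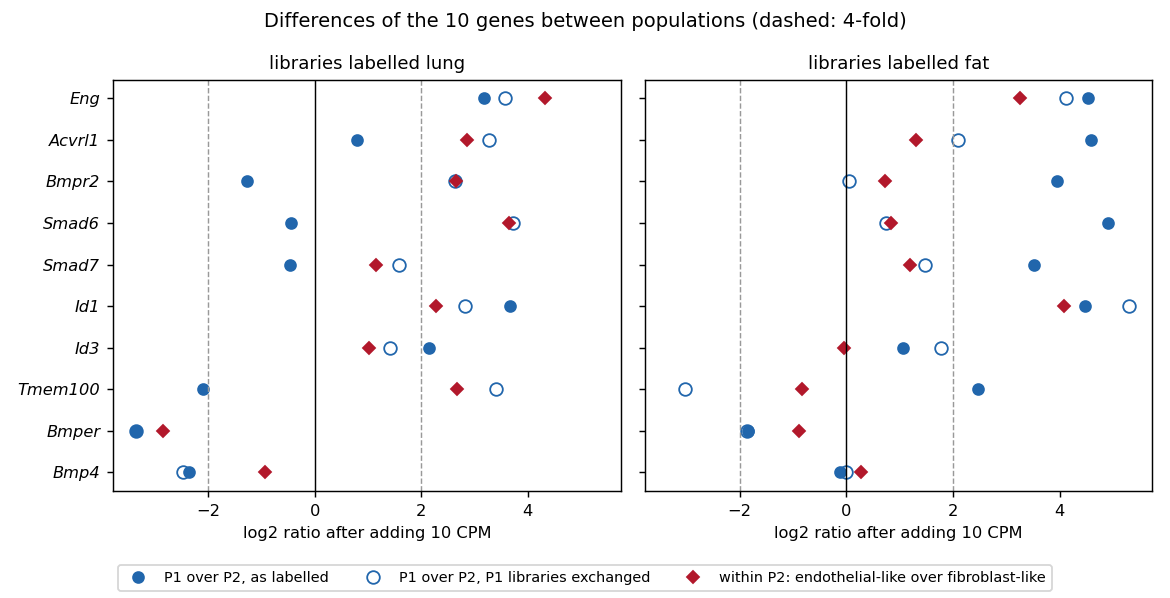
Log2 ratios (after adding 10 CPM) of the 10 genes for P1 over P2 in the libraries labelled lung (left) and fat (right), as labelled (filled circles) and with the P1 libraries exchanged (open circles), with the ratio of endothelial-like over fibroblast-like cells inside the P2 library (diamonds). Dashed lines mark 4-fold. In lung the diamonds for Bmpr2 (2.65), Smad6 (3.65) and Tmem100 (2.67) lie beside the open circles, and in fat the diamonds for Tmem100 (-0.83), Bmpr2 (0.72) and Smad6 (0.83) lie nearer the open circles, those for Id1 (4.09) and Id3 (-0.05) nearer the filled ones.

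The second comparison set lung against fat within a population. In P1 as labelled, 5 of 8 genes were at least 4-fold lower in labelled lung P1 than in labelled fat P1 and none was higher, beside 5.71% lower and 5.28% higher among all 4605 genes. They were Tmem100 (-5.51), Smad6 (-4.16), Bmpr2 (-3.91), Acvrl1 (-2.49) and Smad7 (-2.05), of which Smad7 was under 4-fold with TMM scaling or DESeq2 size factors. Eng (-0.40), Id1 (0.83) and Id3 (0.72) lay within 4-fold. Every sign turns round if the labels of the P1 libraries are exchanged. Beside this difference, fibroblast markers summed to 1705 CPM in labelled lung P1 and 199 in labelled fat P1, haemoglobin and other erythroid genes to 5815 and 223 CPM, and 14 dissociation-response genes such as Fos, Jun and Atf3 to 23500 and 3087 CPM. The part of these in the result was not tested. Of the 5 erythroid genes, 4 stood at 100 CPM or more in labelled lung P1.

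In P2, Bmp4 alone was at least 4-fold higher in lung than in fat, with a log2 ratio of 2.34, beside 8.24% of all 4323 genes, and none of 8 genes was lower, beside 4.79%. Smad7 (1.94), Bmper (1.49), Bmpr2 (1.33) and Acvrl1 (1.31) were more than 2-fold and less than 4-fold higher in lung P2. Id3 (-0.36) and Tmem100 (-0.93) were nearer to fat P2. Eng stood at 0.95 over all cells and at -0.50 among fibroblast-like cells alone. Dissociation-response genes summed to 6213 CPM in lung P2 and 24837 in fat P2, and their part in these values was not tested. Scaling moved the balance of all genes here: 63.2% of the genes past 4-fold were higher in lung by CPM, 48.1% with TMM and 49.2% with DESeq2 size factors. The corresponding share was 55.0% by CPM and 44.0% with DESeq2 size factors for P1 over P2 in fat, and 48.0% and 59.0% for lung over fat in P1. The median log2 ratio over all genes was 0.38 by CPM and -0.05 with TMM for P1 over P2 in fat, and 0.15 by CPM and -0.27 with TMM for lung over fat in P2. With TMM, Eng stood at 0.64 and Tmem100 at -1.28 in the P2 comparison, and no ratio of the 10 genes printed here changed its sign with either scaling.

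Receptors were seen together in single cells mainly in labelled fat P1. At 1000 UMIs, all 3 of Eng, Acvrl1 and Bmpr2 were seen in 2.45% of barcodes labelled lung P1 (1.41 to 3.95), 0.975% of lung P2 cells (0.534 to 1.63), 48.0% of cells labelled fat P1 (45.8 to 50.3) and 0.0380% of fat P2 cells (0.00783 to 0.111). Without thinning the shares were 7.06%, 3.06%, 86.0% and 3.81% in the same order. At least 5 of the 10 genes were seen in 56.1% of cells labelled fat P1 and in 0.0253% to 1.99% of cells of the other libraries. In lung P2, Bmp4 was seen together with Acvrl1 in 2.79% of cells and together with Bmper in 2.51%, beside 24.0% with Bmp4 at all.

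**Figure D3:**
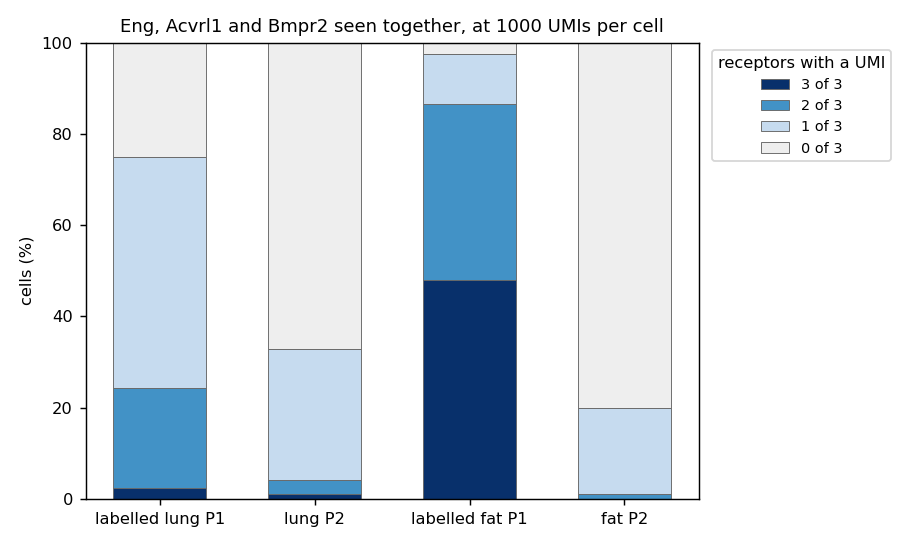
Percentage of cells in which 3, 2, 1 or 0 of the receptor genes Eng, Acvrl1 and Bmpr2 were seen after thinning every cell to 1000 UMIs, by library. Labelled fat P1 is the only bar with a large dark part (48.0% with all 3), while 67.1% of lung P2 cells and 80.1% of fat P2 cells held none.

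Within libraries, cells were clustered without the 10 genes and without their pathway, so that a difference between clusters was not built in. In labelled fat P1, 8 of the 9 genes with 50 CPM or more in a cluster differed at least 4-fold between the highest and the lowest of 11 clusters, all but Id3, beside 31.5% of all genes. For 7 of the 8 the lowest cluster was the epithelial-like one, and without it Bmp4 alone passed 4-fold, beside 17.3% of all genes. A cluster of 423 cells led by Fibin, Ednrb and Tbx2, genes of the lung capillary cells called aerocytes, had the highest Acvrl1 (2355 CPM) and the lowest Bmp4 (2.47 CPM, 4 UMIs, 0.672 to 6.31). A cluster of 280 cells led by Cxcr4, Lpl and Efnb2 had the highest Eng (1782 CPM), Bmpr2 (2804) and Tmem100 (2216). In the aerocyte-gene cluster Bmpr2 stood at 1783 CPM and Tmem100 at 1682 CPM, so these genes were high in both.

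Smaller clusters of that library held the extremes of other genes. A cluster of 41 cells led by Plac8, Olfm2 and Mgp had the highest Smad6 (910 CPM, 765 to 1074), Smad7 (656), Id1 (565, 453 to 697.5) and Id3 (1053). A cluster of 39 cells led by Slc6a2, Fgl2 and Cytl1 had the lowest endothelial Smad6 (282 CPM, 211 to 369) and Tmem100 (682, 569 to 810.5) with the highest Bmp4 (192, 134 to 265). The counting intervals of these clusters did not overlap for Smad6, and for Id1, at 367.5 CPM (286 to 465) in the Slc6a2 cluster, they did. The 38 epithelial-like cells had the lowest level of every receptor, inhibitory SMAD and target gene among the 11 clusters, such as Eng at 188 and Bmpr2 at 449 CPM, and held all Bmper. Cluster 1 and cluster 4, led by surfactant genes and by Ccl21a, Igkc and Fabp4, were left unnamed though all 12 endothelial markers stood at 100 CPM or more in them.

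**Figure D4:**
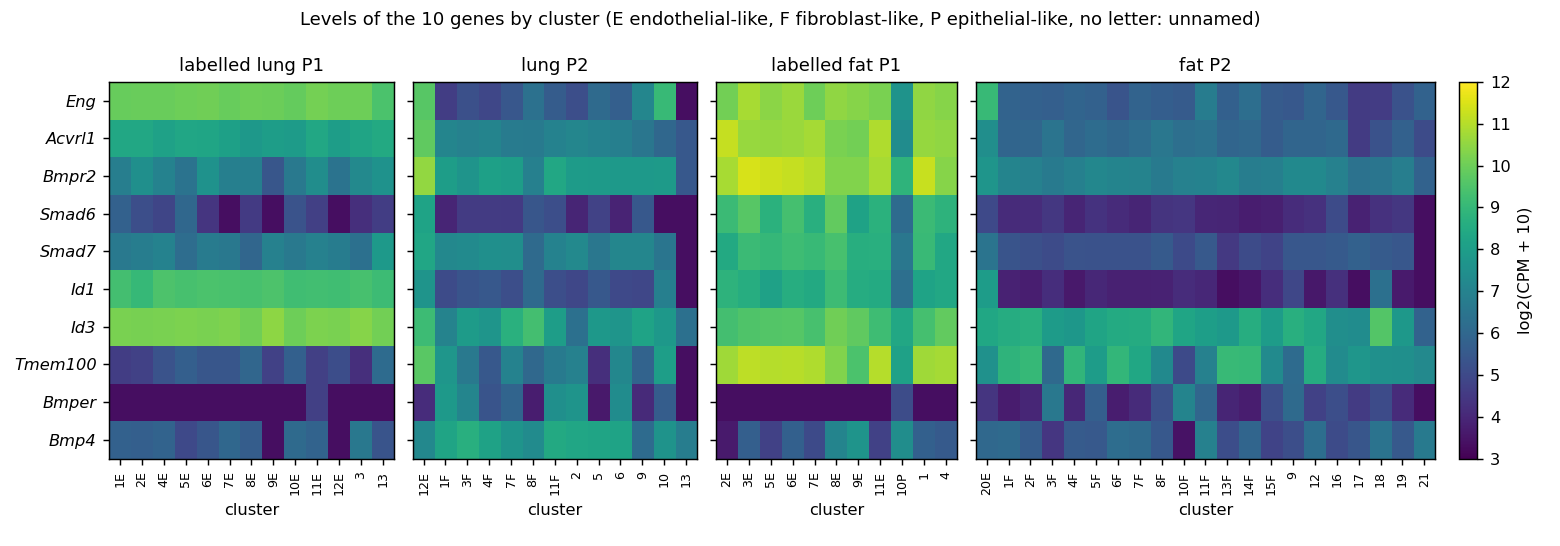
Levels of the 10 genes, as log2(CPM + 10) on the colour scale, in every cluster of each library. Columns are clusters, numbered within a library and marked E (endothelial-like), F (fibroblast-like) or P (epithelial-like), and rows are genes ordered by role. The receptors and inhibitory SMADs are bright across labelled fat P1 except in its epithelial-like cluster, and in lung P2 Acvrl1, Bmpr2 and Smad6 are brightest in the endothelial-like cluster 12E, as is Eng, which is also bright in cluster 10. Clusters of labelled lung P1 look alike.

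In lung P2, the 34 endothelial-like cells carried 54.3% of all Eng UMIs of the library, 62.3% of Smad6, 36.5% of Acvrl1, 36.0% of Tmem100, 32.1% of Bmpr2 and 31.2% of Id1, with 6.76% of all UMIs. Outside them, a cluster of 43 cells led by Cox4i2, Postn and Higd1b, the first a pericyte gene, held Eng at 522 CPM (371.5 to 714) and Id1 at 107 (46.3 to 211), while Smad6 was at 0 UMIs. Id3 was highest in 76 fibroblast-like cells led by Scara5, Dcn and Ccl11, at 624 CPM (539 to 720), and lowest, at 69.1 CPM, in an unnamed cluster of 214 cells.

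Bmper divided the clusters of lung P2 and Bmp4 much less so. Bmper stood at 221 CPM (188 to 258) in 245 fibroblast-like cells led by Tcf21, a factor of lung lipofibroblasts, and Gsta3. It stood at 2.17 CPM (1 UMI, 0.0551 to 12.1) in 147 unnamed cells led by Adh7, Hmcn2 and Lamc3. In the fibroblast-like Scara5 cluster it stood at 3.29 CPM (1 UMI, 0.0832 to 18.3). In 54 unnamed cells led by the contractile genes Acta2, Myh11 and Cnn1 it stood at 6.85 CPM (1 UMI, 0.173 to 38.2). Bmp4 in the same clusters stood at 298 CPM in the Tcf21 cluster, 298 in the Adh7 cluster, 151 in the Scara5 cluster and 61.7 (28.2 to 117) in the contractile cluster. Over 12 clusters of 50000 or more UMIs the Pearson correlation of the 2 genes on log2(CPM + 10) was 0.66 (Spearman 0.62), for points that share 1 library.

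In fat P2, Bmper and Tmem100 were split between different fibroblast groups. Bmper was highest in 359 cells led by Scg3, Sdc1 and Adam12, at 125 CPM (110.2 to 140.3), and in 722 cells led by Nrep, Col4a1 and Aoc3, at 86.8 CPM (78.0 to 96.45). In these, Tmem100 stood at 22.4 CPM (16.6 to 29.7) and 57.0 CPM (49.8 to 64.9). Tmem100 stood between 454.5 and 527 CPM in the 6 fibroblast-like clusters led by genes such as Pi16, Dmkn, Cxcl13, Mrgprg and Ifit1, where Bmper lay between 2.83 and 6.05 CPM.

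The opposite course ran through the library. Over 20 clusters of 50000 or more UMIs the Pearson correlation of Bmper and Tmem100 was -0.91 and the Spearman correlation -0.89, for points that share 1 library. The pair was singled out after its values were seen. Cell by cell at 1000 UMIs, Tmem100 was seen in 10.6% (6.62 to 16) of 188 fibroblast-like cells with Bmper and in 27.2% (26.1 to 28.2) of 6758 without it, at median depths of 5830.5 and 5349.5 UMIs. In lung P2 the same shares were 16.7% (9.42 to 26.4) of 84 cells and 9.69% (7.62 to 12.1) of 712 cells, and the correlation over clusters was 0.27, so the opposition seen in fat P2 was not seen there. That the tissues differ in this was not tested.

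**Figure D5:**
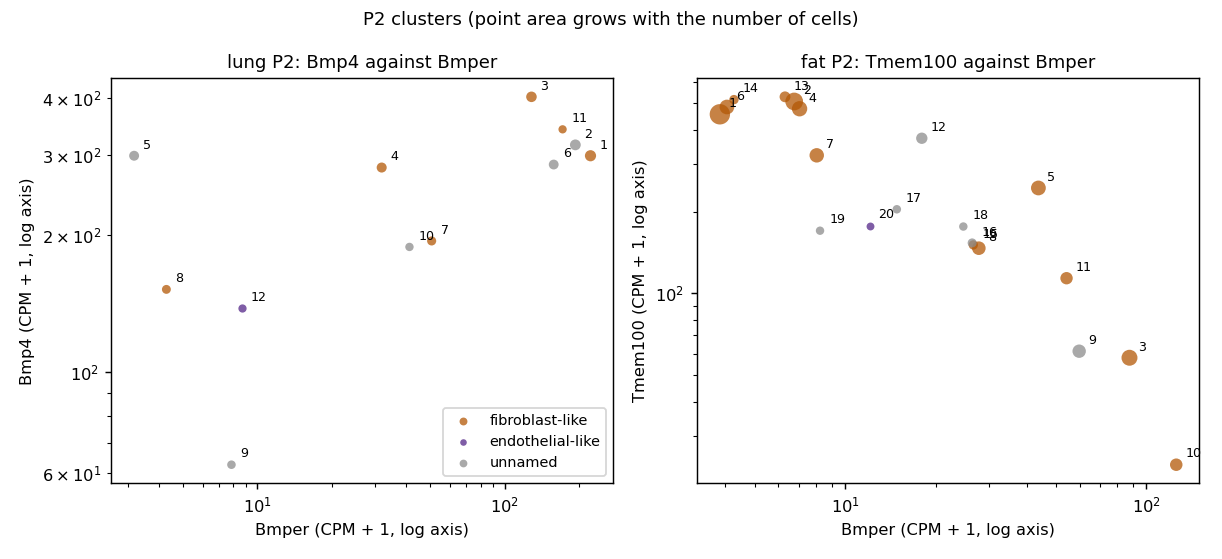
Clusters of lung P2 (left, Bmp4 against Bmper) and fat P2 (right, Tmem100 against Bmper), both axes in CPM + 1 on log scales, for clusters of 50000 or more UMIs, with colour for the class, point area growing with the number of cells and the cluster number beside each point. In fat P2 clusters run from high Tmem100 with low Bmper to the reverse, at 22.4 and 125 CPM in cluster 10.

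Among the rarer cells of fat P2, 47 cells led by Nppc, Chodl, Des and the myogenic factor Myf5 had the highest Id3 of the library (762 CPM, 649 to 889) with Id1 at 71.0 (39.7 to 117). Labelled lung P1 showed little structure: its clusters were led by scattered genes, Eng ranged from 690.2 to 1101 CPM over them, Id1 from 517.5 to 710 and Id3 from 1024 to 1418 CPM. The 3 genes past 4-fold between its clusters (Bmpr2, Smad6 and Bmp4) rested on small counts, beside 57.8% of all genes past 4-fold there. None was past 4-fold at a coarser clustering. That clustering had only 2 clusters, of 638 and 14 barcodes, so it cannot decide whether these differences hold.

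Other genes of the pathway were read from 6 lists, whose counts with the P1 libraries exchanged were added after the data had been seen. Of 15 further BMP ligands, 4 stood at 50 CPM or more in 1 of the labelled lung libraries, and 3 of these were at least 4-fold lower in P1 and none higher, beside 11.8% and 8.45% of all genes. In the libraries labelled fat 3 reached it, with Bmp6 higher in P1 and Bmp3 and Gdf10 lower, beside 12.4% and 10.1%. With the P1 libraries exchanged, labelled fat P1 had 1 of 4 higher and 3 lower than lung P2, beside 8.90% and 10.3% of all genes. Labelled lung P1 had none of 3 higher and 2 lower than fat P2, beside 9.97% and 9.46%. Bmp3 had 0 UMIs in labelled lung P1 (upper limit 3.298 CPM) against 282 CPM in lung P2, and stood at 0.461 CPM in labelled fat P1 against 54.4 in fat P2. Bmp5 stood at 0.894 CPM in labelled lung P1, 260 in lung P2, 1.69 in labelled fat P1 and 5.14 in fat P2. Bmp6, a ligand known from liver endothelium, ran the other way and stood at 53.6, 19.1, 349 and 21.5 CPM in that order. Gdf2 and Bmp10, the genes of BMP9 and BMP10 themselves, had no more than 1 UMI in any library.

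The secreted antagonists and modulators that passed 4-fold were lower in P1, with 1 exception. Of 23, 9 reached 50 CPM in the libraries labelled fat, of which 7 were at least 4-fold lower in P1 and 1 higher (Crim1, log2 ratio 2.78, named after its value was seen), beside 10.1% and 12.4% of all genes. In the libraries labelled lung 9 reached it, with 4 lower and 0 higher, beside 11.8% and 8.45%. With the P1 libraries exchanged, 7 of 9 were lower and 1 higher in labelled lung P1 than in fat P2, beside 9.46% and 9.97% of all genes. In labelled fat P1, 7 of 9 were lower and 0 higher than in lung P2, beside 10.3% and 8.90%. Fst, which encodes follistatin, an activin and BMP binder, stood at 14.3 CPM in labelled lung P1, 12.1 in lung P2, 0.307 in labelled fat P1 and 274 in fat P2. For Fstl1, a related secreted protein, the levels in these libraries were 101, 382.5, 45.8 and 1893 CPM. For Twsg1, a BMP-binding cofactor, they were 29.5, 545, 20.1 and 191 CPM, and for the secreted protease Htra1 105.5, 74.7, 8.45 and 512 CPM. Of these, Twsg1 was highest in lung P2 and the other 3 were highest in fat P2.

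The further receptors gave no common direction. Of 8 BMP and activin receptors, 2 reached 50 CPM in the libraries labelled fat and 3 in those labelled lung. In each tissue 1 was at least 4-fold higher and 1 lower in P1. Over all genes the shares were 12.4% and 10.1% in fat and 8.45% and 11.8% in lung. Bmpr1a (ALK3) was the lower one in each and was at least 4-fold lower in P1 under both labels and with the P1 libraries exchanged, at 1.79 CPM in labelled lung P1, 112 in lung P2, 5.07 in labelled fat P1 and 68.6 in fat P2. Bambi, a pseudoreceptor that dampens the signal, stood at 135 CPM in labelled lung P1, against 17.3 to 24.7 CPM in the other libraries. Acvr1b was highest in labelled fat P1 (82.6 CPM) and Acvr2a in lung P2 (96.4). None of the 6 measurable SMADs and SMAD regulators passed 4-fold between P1 and P2 in either tissue, as labelled or exchanged. As labelled, 22.5% of all genes passed it in either direction in fat and 20.2% in lung. With the exchange, 9.97% were higher and 9.46% lower in labelled lung P1 than in fat P2. For labelled fat P1 over lung P2 these shares were 8.90% and 10.3%. Smad4, the common partner of these SMADs, ranged from 40.2 to 109 CPM over the libraries. Smurf2, a ubiquitin ligase, was at least 4-fold lower in labelled lung P1 (22.35 CPM) than in labelled fat P1 (219 CPM).

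Some further targets of BMP9 and ALK1 were higher in P1. Of 8 on the list, 4 reached 50 CPM in each tissue and 2 were at least 4-fold higher in P1 in each, with none lower: Hey1 and Gja4 in fat, Gja4 and Edn1 in lung. Over all genes 12.4% were higher in P1 in fat and 8.45% in lung. With the P1 libraries exchanged, Hey1 and Gja4 were higher in labelled lung P1 than in fat P2, beside 9.97% of all genes. Hey1, Gja4 and Edn1 were higher in labelled fat P1 than in lung P2, beside 8.90%. Gja4, an arterial connexin, stood at 192 CPM in labelled lung P1, 9.54 in lung P2, 160 in labelled fat P1 and 0.252 in fat P2. For Hey1, a Notch and BMP target, the levels of these libraries were 74.2, 11.1, 243 and 2.84 CPM. For Edn1 (endothelin) they were 147.5, 9.02, 153 and 95.1 CPM. Id2 stayed under 4-fold in both tissues, as labelled and exchanged, at 63.5, 45.6, 70.35 and 77.0 CPM in that order. Of 10 TGF-beta ligands, receptors and SMADs, Tgfb1 was at least 4-fold higher in P1 under both labels and with the P1 libraries exchanged, at 252 against 25.5 CPM in the libraries labelled lung and 136 against 13.8 in those labelled fat. In fat, Tgfbr2 (126 against 669 CPM), Tgfbi (2.46 against 162) and Tgfb2 (13.7 against 94.3, named after its value was seen) were at least 4-fold lower in P1. With the P1 libraries exchanged, Tgfbi was lower in both P1 libraries, and Tgfbr2 was under 4-fold in both (-1.32 for labelled lung P1 over fat P2, -1.85 for labelled fat P1 over lung P2).

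Genes most like each of the 10 were sought over 55 clusters of all libraries with 50000 or more UMIs, which share libraries and depth, so the correlations of log2(CPM + 10) are descriptions. Eng ran most with the endothelial genes Arap3 (0.973), Esam (0.967) and Notch4 (0.960), Acvrl1 with Clec14a (0.966), and Id1 with Esam (0.956). Bmpr2 (0.936) and Smad6 (0.929) both ran most with Adrb1. Smad7 ran most with Git2 (0.934), Id3 with Ccdc85b (0.873), Tmem100 with Tmeff1 (0.876), Bmper with Mme (0.878) and Bmp4 with Limch1 (0.844). Among the 10 genes themselves, the pairs with the highest correlation were Eng with Id1 (0.92) and Bmpr2 with Smad6 (0.91), whereas Tmem100 correlated with Bmpr2 (0.73) and not with Eng (0.17) or Id1 (-0.06).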

How the data were processed

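The deposited matrices hold raw counts (UMIs of each gene in each barcode, unnormalized), made by the authors with Cell Ranger 3.1.0 on mm10 per the submitters' processing notes, from 10x Genomics 3′ libraries per the labels' protocols. The annotation release is not given in the sources used here. Gene coordinates were matched by gene ID in GENCODE vM21, and mm10 is GRCm38.

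The 10 genes, the pathway and marker lists, the rule for named genes (all 10, and up to 4 genes per pathway list with the largest ratios among those at 50 CPM) and the comparisons were chosen with earlier results of these data known. Where several gene IDs had 1 symbol, their UMIs were added. Barcodes with at least 1000 UMIs, 500 genes and at most 10% mt- UMIs were kept: 652 labelled lung P1 (median 1561 UMIs), 1436 lung P2 (2150), 1948 labelled fat P1 (2964) and 7898 fat P2 (5151.5). Doublets were not removed in the main values. An alternative removed 3, 16, 30 and 499 barcodes by Scrublet score, at 0.8% per 1000 barcodes. UMIs were summed per library and scaled to CPM, with exact Poisson 95% intervals. Log2 ratios were taken after adding 10 CPM, and a gene needed 50 CPM in either library. Shares of cells were counted after thinning to 1000 UMIs, with Clopper-Pearson 95% intervals. By the Poisson intervals, a count of 0 has an upper limit from 0.0846 CPM in fat P2 to 3.298 CPM in the library labelled lung P1. Cells were clustered per library with scanpy 1.11.5 (2000 variable genes without the 10 genes and 6 pathway lists, 30 components, 15 neighbours, Leiden resolution 1). Clusters were named after the marker list with the largest share of members at 100 CPM, given at least 3, and stayed unnamed where the top 10 genes favoured a different list or depth was low. Alternative scalings used edgeR and DESeq2 size factors only, with no count test, as each group had 1 library. The 4-fold rule and intervals were tried on simulated Poisson counts only. These hold no variation between libraries, so they cannot show how the calls would hold in replicates.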

Additional observations from a re-analysis of the deposited data

Results flagged for a closer look

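Of 34 genes looked at, the 10 genes and the named genes of the pathway lists, 12 had P1 over P2 ratios of opposite sign in the libraries labelled fat and lung. In 8 of these the counting intervals of P1 and P2 were also apart in both tissues, and none of these differences was tested, since each group had 1 library. The pathway genes had been named for large ratios in these data. The share of all genes that meets the same rule was not counted, so the counts are not particular to this list. The median over all genes tested was 0.38 in fat and -0.12 in lung. Values are log2 ratios after adding 10 CPM, and the difference given is fat minus lung. For Bmpr2 it was 5.24, from 3.96 in fat and -1.27 in lung. For Tmem100 it was 4.58, from 2.48 in fat and -2.10 in lung. For Smad7 it was 3.99, from 3.52 in fat and an unsettled -0.46 in lung (0.05 with at most 5% mitochondrial UMIs). In the wider pathway it was 3.03 for Smurf2, a ubiquitin ligase for SMADs, 2.34 for Skil, 1.61 for Ski and 1.30 for Smad4. For the protease Htra1 it was -5.27, from -4.82 in fat and 0.45 in lung. In fat, Ski (0.38) and Smad4 (0.28) lay close to the median of 0.38 over all genes by CPM, which was -0.05 with TMM. Their signs with other scalings are not given here, so opposite directions are not settled for them. Each of the 8 differences rests on the labels of the P1 libraries, which the tissue genes contradict. With the P1 libraries exchanged, the ratios kept opposite signs in 3 genes: Tmem100 (-3.03 in fat, 3.41 in lung), Smurf2 (-1.63 and 1.0) and Smad4 (-0.97 and 0.22). In the other 5 they had the same sign: Bmpr2 (0.05 in fat, 2.64 in lung), Smad7 (1.48 and 1.58), Skil (0.08 and 0.59), Ski (-0.72 and -0.14) and Htra1 (-2.18 and -2.20). The 0.22 of Smad4 in lung stood beside a median of 0.21 over all genes.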

How the results depend on the processing

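No paired analysis was possible because each group had 1 library. Of 400 single log2 ratios recomputed under 10 alternatives that can move them, 262 stayed within counting error of their value and 138 moved further. In 5 of the 400 the sign changed, each in a ratio under 4-fold or under 50 CPM (Smad6 3 times and Smad7 once for P1 over P2 in lung, Eng once for lung over fat in P2). Exchanging the P1 libraries changed 5 of 20 signs for P1 over P2: in lung Bmpr2 (2.64), Smad6 (3.72), Smad7 (1.58) and Tmem100 (3.41), in fat Tmem100 (-3.03). For lung over fat in P1 the exchange turns every sign by construction, with 2.49 (Acvrl1), 3.91 (Bmpr2), 4.16 (Smad6), 2.05 (Smad7) and 5.51 (Tmem100). The exchange gave 3 genes at least 4-fold higher and 1 lower in P1 of fat, 6 higher in P1 of lung, and 5 higher and 0 lower in lung P1. Against P2, the genes higher in P1 include Eng, whose protein was gated in the sort, in both tissues. Adding 50 CPM left 0 genes lower in P1 of lung, beside 207 of all 4791 genes tested. It left 0 higher in lung P2 than in fat P2, beside 130 of all 4323. Adding 1 CPM gave 2 higher in lung P2, beside 437 of all 4323, and a 2-fold threshold gave 5, beside 818. Within lung P2, endothelial-like over fibroblast-like cells gave 6 higher and 1 lower, and within fat P2 2 higher, in an alternative added after the data were seen. Without thinning, 8 genes in place of 3 were seen in at least 10% of fat P2 cells. At Leiden resolution 0.5, 0 genes in place of 3 differed 4-fold between clusters labelled lung P1, but only 2 clusters remained there, of 638 and 14 barcodes. Without the epithelial-like cluster, in an alternative also added after the data were seen, 1 gene in place of 8 differed 4-fold between clusters labelled fat P1. The causes were not tested. Depth limits the library labelled lung P1 most: 1 UMI there is 0.894 CPM.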
